A study of Mus musculus with 4 samples.

Results

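Membrane carriers of the Slco family (organic anion transporters) and the Slc1 family (glutamate and neutral amino acid transporters) were followed in primary cultured mouse mesenchymal stromal cells (MSCs) depleted of Islr, the gene of the cell surface protein Meflin. The 7 genes described are Slco4a1, Slco2a1, Slco3a1, Slc1a1, Slc1a3, Slc1a4 and Slc1a5, out of 21154 genes named on the array. They were chosen on their differences between the Islr hairpin arrays and the control array, with Slco4a1 and Slc1a3 picked for their higher signals and the rest set beside them as relatives. Their values are therefore given as descriptions without a test. All 7 had a probe, and 6 of them passed the filter on dim probes, which kept a gene whose probe was well above background either in the control or on each of the 3 hairpins. Slc1a1 did not pass.

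The series asked how depletion of Meflin changes the expression profile of MSCs. All cells were at passage 5 and carried a retroviral short hairpin RNA (shRNA). The shControl group is 1 array, and the shIslr group is 3 arrays, each of another hairpin with its own target sequence in Islr, called hairpins 1, 2 and 3 by their label numbers. Total RNA, 0.5 ug per sample, was labelled with Cy3 and hybridised to one-colour Agilent arrays. Mouse strain, age and the number of cell preparations are not given in the labels, so n = 3 counts hairpins, not animals, and the spread of the control is unknown. Differences are log2, hairpin minus control, after each array was divided by its 75th percentile. They are given as mean ± SD over the 3 hairpins.

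Slco proteins carry large amphipathic organic anions across the plasma membrane without using ATP. Slco4a1 is known to carry thyroid hormones, Slco2a1 is the prostaglandin transporter that takes prostaglandins up from outside the cell, and Slco3a1 is a widely expressed relative. Slc1 proteins use the sodium gradient. Slc1a1, Slc1a2, Slc1a3, Slc1a6 and Slc1a7 take up glutamate and aspartate and are known mainly from glia, neurons and retina, whereas Slc1a4 and Slc1a5 exchange neutral amino acids such as alanine, serine, cysteine and, for Slc1a5, glutamine.

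The promoters of Slco4a1 and Slc1a3 are shown because these are the members that stood highest over the control. Of the 7 members, 5 had a promoter window in the RefSeq table (build GRCm38.p6), which runs from 250 bases before to 50 bases after an annotated start. The bases before the start are printed 5′ to 3′ along the gene, in lower case with motif matches in capitals. Slco4a1 has 2 annotated starts, at the ends of chr2:180455995-180456244 and chr2:180460728-180460977 on the plus strand. The Slc1a3 window is chr15:8710808-8711057 on the minus strand.
Slco4a1 first start: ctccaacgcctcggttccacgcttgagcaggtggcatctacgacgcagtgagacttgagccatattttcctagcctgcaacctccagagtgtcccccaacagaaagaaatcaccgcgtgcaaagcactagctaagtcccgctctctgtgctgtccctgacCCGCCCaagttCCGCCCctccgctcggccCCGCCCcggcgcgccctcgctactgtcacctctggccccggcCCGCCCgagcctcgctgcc
Slco4a1 second start: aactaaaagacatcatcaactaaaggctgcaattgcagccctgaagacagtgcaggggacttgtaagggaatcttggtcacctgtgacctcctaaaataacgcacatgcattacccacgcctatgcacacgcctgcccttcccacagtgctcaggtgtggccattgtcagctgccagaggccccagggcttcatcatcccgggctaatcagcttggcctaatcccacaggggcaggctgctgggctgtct
Slc1a3: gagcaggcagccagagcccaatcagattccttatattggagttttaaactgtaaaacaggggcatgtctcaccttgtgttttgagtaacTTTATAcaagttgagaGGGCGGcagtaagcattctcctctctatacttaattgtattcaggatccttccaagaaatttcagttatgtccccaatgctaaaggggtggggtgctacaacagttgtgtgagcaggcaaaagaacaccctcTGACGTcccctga

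Motifs were searched on both strands of the 300-base windows, and no 2 matches overlapped. The GC box GGGCGG is in 35.7% of all 32851 windows, the TATA box TATAAA in 13.6%, and TGACGT, the core of the cyclic AMP response element, in 7.51%. The first Slco4a1 window held 4 GC boxes, all on the reverse strand, and none of the other motifs. The second Slco4a1 window held no match. The Slc1a3 window held 1 GC box, 1 TATA box on the reverse strand at position -161 from the start, and 1 TGACGT at -13. The Slco2a1 window held 1 GC box and a TATA box at -29, that of Slc1a1 held 1 GC box, and that of Slc1a4 held 3 GC boxes and 1 TGACGT. The 250 bases before the start also differed in base composition. G and C made up 64.8% of them at the first Slco4a1 start, 54.8% at the second and 44.8% for Slc1a3. The share was 63.2% for Slco2a1, 70.4% for Slc1a1 and 64.8% for Slc1a4, and the median over all windows was 52.4%. A match is a description of letters and does not show that a factor binds there.

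Between 49.4% and 53.8% of 59305 features were well above background, no feature was saturated, and the 75th percentile of the signal lay between 414.7 and 442.5. Islr had a signal of 454 in the control, against 11.0, 70.5 and 3.44 on hairpins 1 to 3, where only hairpin 2 was above background. All 12 stromal cell markers, Pdgfra, Thy1 and Col1a1 among them, were above background on all 4 arrays. Their levels were not all unchanged. Of the 12, 4 lay above the control on every hairpin and 4 below it, beside 27.6% and 24.6% of all genes tested. The filter kept a gene above background in the control alone, but a gene not above it there needed all 3 hairpins. Counts of lower genes can therefore include genes at background on every hairpin. Across the 13565 genes tested, limma with Benjamini-Hochberg adjustment called 0 genes higher (0%) and 47 lower (0.346%). With no adjustment, 206 genes were higher and 449 lower at a p under 0.05.

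Slco4a1 had a signal of 31.5 in the control, against 516, 177 and 313 on hairpins 1 to 3. All 3 hairpin arrays lay far above the control, and hairpin 2 was the lowest of them. The control signal was itself close to background, since the lowest signal called above background on that array was 19.3. The differences were 4.13, 2.52 and 3.34, which are 17.5-fold, 5.72-fold and 10.1-fold, with a mean of 3.33 ± 0.81. No other gene of those tested had a larger smallest difference over the 3 hairpins. The size depends on the background correction: with normexp (offset 50) and quantile normalization the differences were 2.71, 1.35 and 2.03, with a mean of 2.03.

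Slco2a1 was a bright gene, with a control signal of 8967 that was at or above that of 87.6% of the genes tested. On hairpins 1 to 3 its signal was 8772, 11918 and 19214. Hairpin 1 was level with the control (0.06), hairpin 2 was higher by 0.43 and hairpin 3 by 1.13, so that the mean of 0.54 ± 0.54 equalled its spread. The highest array was hairpin 3, where the fold was 2.19, whereas for Slco4a1 it was hairpin 1. Without hairpin 3 the Slco2a1 mean was 0.25.

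Slco3a1 had 2 probes, matched to 2 of its transcripts. The brighter one gave 1196 in the control, against 2601, 953 and 2444 on hairpins 1 to 3, which is 1.21, -0.30 and 1.06 on the log2 scale. The other gave 858 on the control and 1616, 917 and 1363, which is 1.01, 0.12 and 0.70. Both probes were higher on hairpins 1 and 3 and near the control on hairpin 2, and they differed in sign on hairpin 2 alone. The brighter probe had a mean of 0.66 ± 0.84 and the other 0.61 ± 0.45. Without hairpin 2 the mean of the brighter probe was 1.14, and without hairpin 1 it was 0.38.

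Most other genes of the Slco family were not above background on these arrays. Of 12 other Slco genes looked up, 11 had a named probe and 8 of these were not above background on any array, among them Slco1b2, known from liver, and Slco2b1. Slco1a6 and Slco1c1 were above background on hairpin 3 alone. Slco1a5 was the only one that passed the filter, with 143 in the control, against 162, 79.0 and 78.7 on hairpins 1 to 3. It was higher on hairpin 1 (0.27) and lower on hairpins 2 and 3 (-0.83 on each), with a limma adjusted p of 0.969.

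**Figure D1:**
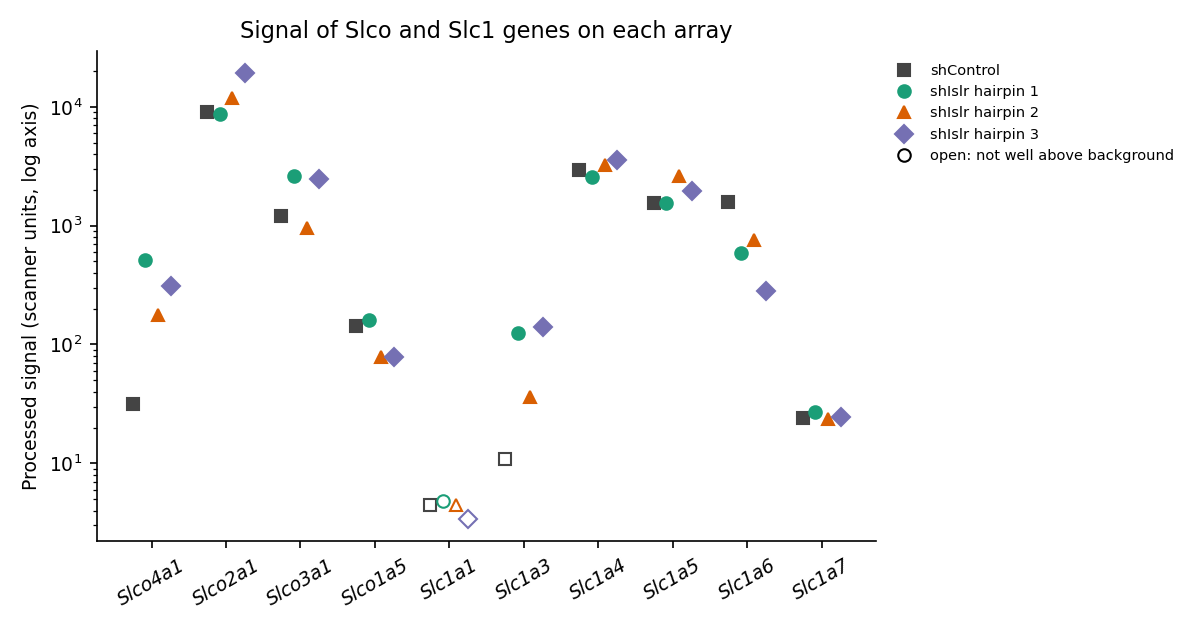
Processed signal in scanner units, on a log axis, of 10 Slco and Slc1 genes on the control array and the 3 Islr hairpin arrays, 1 point per array. Open points are not well above background. Slco4a1 goes from 31.5 on the control array to between 177 and 516 on the hairpins, and Slc1a6 goes from 1583 to between 281 and 759.

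Slc1a3, the glutamate transporter GLAST, was not above background on the control array, with a signal of 10.8. On hairpins 1 to 3 it was above background at 125, 36.0 and 140. All 3 hairpin arrays were thus higher than the control, hairpin 2 by the least. Set against the lowest signal called above background on the control array, the gene was at least 6.91-fold higher on hairpin 1, at least 1.90-fold on hairpin 2 and at least 7.42-fold on hairpin 3, and at least 4.60-fold for the mean. That level is not the limit of this probe, so these bounds may be too high. With the control signal taken as it stands the mean difference was 3.03 ± 1.11, which is no bound. With normexp correction the differences were 1.45, 0.41 and 1.60, with a mean of 1.15.

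Slc1a3 is best known from astrocytes, and a list of 10 astrocyte and glial markers was read beside it. Of these, Gfap, Slc1a2, Fabp7, Olig2 and Sox10 were not above background on any array, and Mbp and Aldh1l1 were above it on all 4. Mbp was at a signal of 1141 in the control, against 815, 1228 and 1380 on hairpins 1 to 3, and Aldh1l1 was at 89.9, against 92.0, 76.3 and 74.0, so both lay on either side of the control. Aqp4, above background on 3 arrays, was at 29.2, against 20.6, 30.3 and 30.2. The part of such cells in the Slc1a3 values was not tested. S100b was at 26.4 in the control, against 12.4, 7.7 and 216.2 on hairpins 1 to 3, and was not above background on hairpins 1 and 2. In RNA from a whole culture, more cells of a type and more RNA per cell cannot be told apart.

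Slc1a1, the neuronal and epithelial glutamate transporter EAAC1, was measured by 10 features of 1 probe and was not above background on any array. Its features lay between 3.80 and 4.84 on the control array and between 3.01 and 5.25 on the hairpins. Slc1a2, the main astrocyte glutamate transporter and no member, was likewise below background on all 4 arrays.

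Slc1a4, the neutral amino acid exchanger ASCT1, had the smallest mean difference of the 6 members tested. Its signal was 2945 in the control, against 2557, 3234 and 3559 on hairpins 1 to 3, which is -0.11, 0.16 and 0.30, with a mean of 0.12 ± 0.21. The hairpins lay on both sides of the control, and without hairpin 3 the Slc1a4 mean was 0.02. As background, Slc1a4 and Slc1a5 are known targets of Atf4, the transcription factor that cells use when amino acids are short. The Slc1a4 window held TTGCATCA, the form of the amino acid response element searched for here, which occurs in 0.895% of all windows, across its annotated start at chr11:20332702-20332725 on the minus strand of GRCm38.p6.
Slc1a4 element, in capitals: ctcctgcgTTGCATCAtctccagc

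Slc1a5, the glutamine transporter ASCT2, had signals of 1559 in the control, against 1541, 2598 and 1940 on hairpins 1 to 3. Hairpin 1 was level with the control (0.08), and hairpins 2 and 3 were higher by 0.76 and 0.34, with a mean of 0.39 ± 0.34. Without hairpin 2 the Slc1a5 mean was 0.21. A dimmer probe of the same transcript gave 0.10, 0.79 and 0.36. The 2 probes differed by at most a few hundredths of a log2 unit on each array, less than the median SD of 0.06 between repeated features of a probe within an array (244 probes). The differences of Slc1a5 on hairpin 1 and of Slco2a1 on hairpin 1 were of about that size too. That SD covers features within an array and not the spread between arrays. The median SD over the 3 hairpins was 0.20 among all genes tested.

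**Figure D2:**
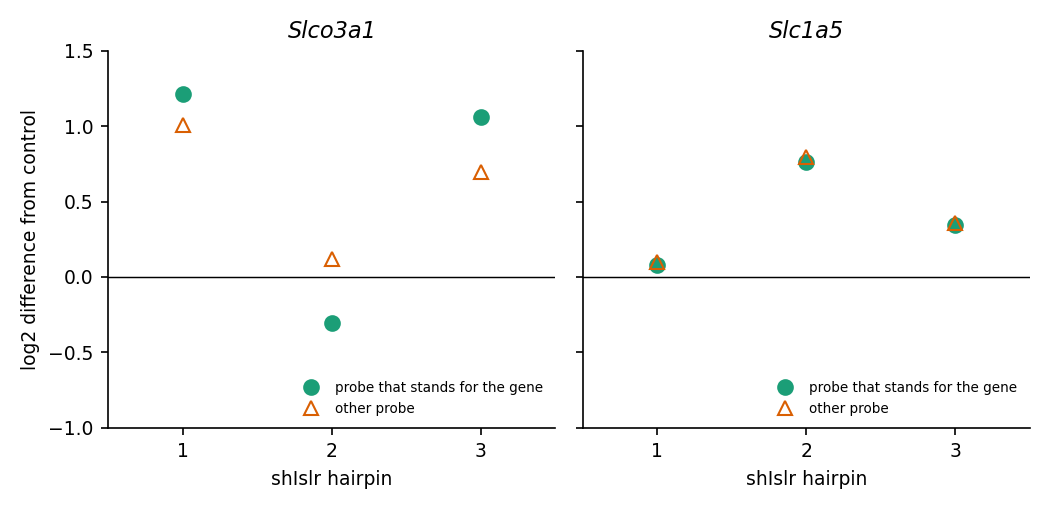
Log2 difference of each hairpin array from the control array for the 2 probes of Slco3a1 (left) and of Slc1a5 (right), 1 point per probe and hairpin. The Slc1a5 probes coincide, while those of Slco3a1 lie on opposite sides of 0 on hairpin 2 (-0.30 and 0.12).

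Slc1a6, a glutamate transporter known from Purkinje cells and no member of the set, went the other way. Its signal was 1583 in the control, against 586, 759 and 281 on hairpins 1 to 3. Every hairpin array was lower than the control, by 2.53-fold, 2.05-fold and 5.52-fold, and all 4 arrays were well above background. The mean difference was -1.61 ± 0.75, and limma's adjusted p was 0.964. It held its sign on every hairpin under all 5 other scalings and background corrections, with means between -1.65 and -1.49. Slc1a7, the retinal relative, was just above background on all 4 arrays at signals between 23.6 and 27.0, with a mean difference of 0.11 ± 0.14.

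**Figure D3:**
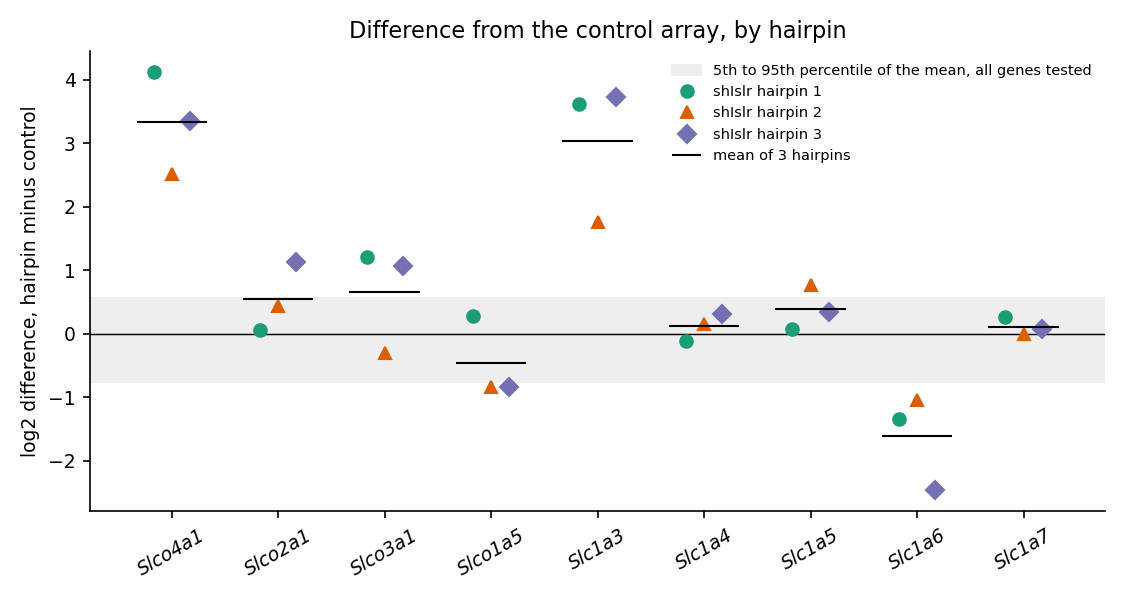
Log2 difference of each hairpin array from the control array for 9 Slco and Slc1 genes, with bars at the mean of the 3 hairpins. The grey band spans the 5th to the 95th percentile of that mean over all genes tested, from -0.76 to 0.56. Slco4a1 and Slc1a3 lie above the band on every hairpin and Slc1a6 lies below it. The control value of Slc1a3 is below background.

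Counted over the 6 members that passed the filter, 4 exceeded the control on every hairpin and 0 lay below it on every hairpin. Those shares were 27.6% and 24.6% among all genes tested. At least 2-fold higher on all 3 hairpins were 2 members, Slco4a1 and Slc1a3, against 0.236% of all genes, and none was 2-fold lower throughout, against 1.69%. The hairpin 2 bound of Slc1a3, at least 1.90-fold, is under that limit. The shares over all genes depend on the filter. With all 4 arrays required to be above background, 12 of 12722 genes were 2-fold higher throughout and 40 lower. Nothing is read from the member counts, because this contrast chose the members. Under the 5 other scalings and corrections each of the 6 kept its signs on the 3 hairpins.

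The members did not share 1 order of hairpins. Slco4a1, Slco3a1 and Slc1a3 were lowest on hairpin 2 among the hairpins, Slc1a5 was highest on hairpin 2, and Slco2a1 and Slc1a4 were highest on hairpin 3. The genes most like Slco4a1, by the root mean square distance between the 3 log2 differences on the 4 arrays, were Qrfpr (0.46), Slc1a3 (0.57) and the cytokine gene Il6 (1.08). Those most like Slc1a3 were Slco4a1 (0.57), Il6 (0.59) and Serpinb9f (0.65). Il6 had signals of 109 in the control, against 906, 203 and 1077 on hairpins 1 to 3. Qrfpr and Serpinb9f, like Slc1a3, were not above background on the control array. These distances rest on the same control array. They also depend on the size of the differences, and Slco4a1 and Slc1a3 were both picked for large ones. Their nearness to each other is therefore not read as a result.

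Genes that work with these transporters were read from 8 lists with 131 genes, of which 94 passed the filter. By limma 0 of the 94 passed, beside 0% called higher and 0.346% lower over all genes. At an unadjusted limma p under 0.05, 1 was higher, the serine synthesis gene Psat1 at 0.72. The 2 lower were Crym and the sodium pump gene Atp1b2 at -1.26. Over all 13565 genes tested, 206 were higher and 449 lower at that level. At least 2-fold on all 3 hairpins there were 0 higher and 1 lower, beside 0.236% and 1.69% of all genes. Nothing is read from these counts. The 1 lower was Crym, a thyroid hormone binding protein gene. Its signal was 24.9 on the control array and not above background on any hairpin (adjusted p = 0.0696 in limma). The size of its difference is therefore unknown. Taken against the lowest signal called above background on each hairpin array, Crym was 1.12-, 1.29- and 1.63-fold lower. The same values for Atp1b2 were 1.88-, 2.16- and 2.73-fold. That level is not the limit of these probes, so these values may be too high as bounds. On hairpin 1, some other probes were not called above background at signals higher than the control signal of Crym. At such a limit Crym need not be lower there.

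Amino acid exchangers, other amino acid carriers and their partner subunits had values on both sides of the control. Of 22 tested, 5 lay above the control on each hairpin and 4 below it, with a median of 0.05 beside 0.01 for all genes. The cationic amino acid carrier gene Slc7a3 was at -0.19, 1.27 and 1.20 on hairpins 1 to 3, and Slc7a7, a light chain of a cationic and neutral amino acid exchanger, was at -1.25, -0.47 and -0.87. The cystine carrier Slc7a11, which exports glutamate, was at 0.30, 1.15 and -0.03 and, with Slc3a2 (0.27 ± 0.16), the partner subunit of several of these carriers, was named after its values were seen. Of 4 sodium pump genes tested, which maintain the gradient that Slc1 proteins use, 3 were higher on all 3 hairpins. Atp1b1 was at 0.96 ± 0.53. The fourth, Atp1b2, was above background on the control array alone.

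Enzymes that make or use glutamate and related amino acids had a median of 0.32. Of 20 tested, 8 were higher on all 3 hairpins and 4 lower. The serine synthesis genes Psph (0.75 ± 0.41) and Psat1 (0.72 ± 0.25), the asparagine synthetase gene Asns (0.62 ± 0.33) and the serine to glycine enzyme gene Shmt2 (0.61 ± 0.27) were the farthest from 0. The glutamine synthetase gene Glul was at -0.08 ± 0.16 and was named after its values were seen. Of 22 glutamate receptor genes, 10 were not above background on any array, and the 5 tested had means between -0.29 and 0.01.

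The amino acid response genes had a higher median on hairpins 2 and 3 than on hairpin 1, each of which is 1 array. All 12 were above background on all 4 arrays, 4 lay above the control on each hairpin and 0 below it. Their median difference was 0.05 for hairpin 1, against 0.45 for hairpin 2 and 0.56 for hairpin 3. The pseudokinase gene Trib3 was at 0.01, 1.02 and 1.11, the transcription factor gene Atf3 at -0.19, 1.01 and 1.27, and Chac1, a glutathione-degrading enzyme gene, at -0.03, 0.77 and 0.82. Of the 6 members tested, 3 had both hairpins 2 and 3 above hairpin 1, beside 37.3% of all genes tested. These were Slc1a5, Slc1a4 and the prostaglandin transporter gene Slco2a1 (0.06, 0.43 and 1.13). Nothing is read from this member count. Each hairpin is 1 array, so these differences between hairpins have no replicate and were not tested.

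**Figure D4:**
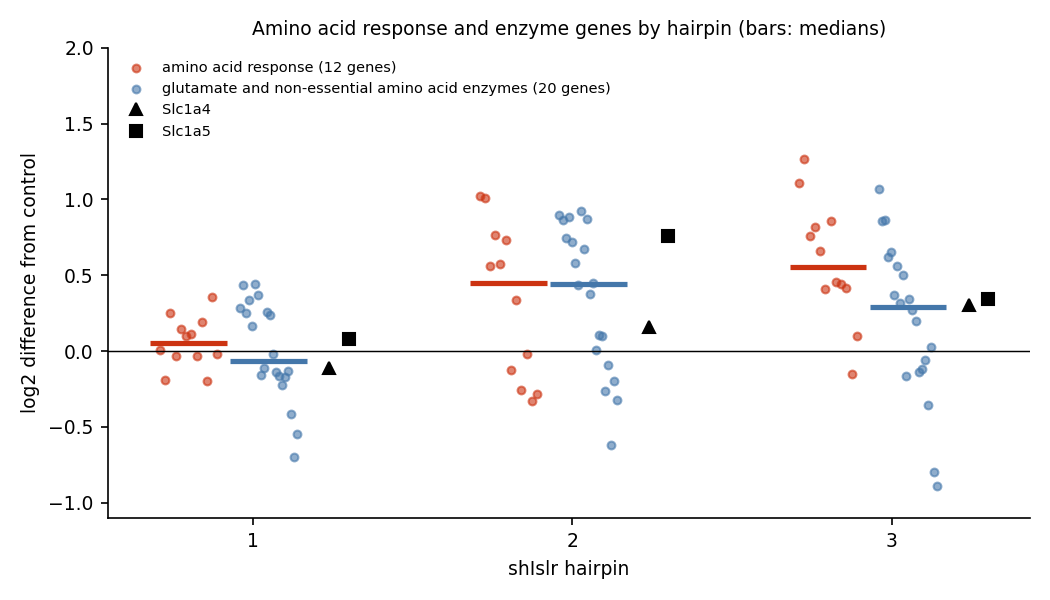
Log2 difference from the control array on each hairpin for 12 amino acid response genes, 20 glutamate and amino acid enzyme genes, Slc1a4 and Slc1a5, 1 point per gene. Bars are list medians. The amino acid response median is 0.05 on hairpin 1 and 0.45 and 0.56 on hairpins 2 and 3.

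Prostaglandin genes were read beside Slco2a1. Of 14 tested, 5 lay above the control on each hairpin and 3 below it, with a median of 0.17. The cyclooxygenase gene Ptgs1 was at 0.66, 0.46 and 1.12 on hairpins 1 to 3. The prostaglandin F receptor gene Ptgfr had signals of 198 in the control, against 125, 91.1 and 68.3 on hairpins 1 to 3, a mean of -1.06 ± 0.47. Of 7 efflux pump genes tested, 2 were higher and 2 lower on all 3 hairpins. Abcb1a, with a control signal of 45.9, varied most, at -0.35, 0.54 and 1.97.

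Thyroid hormone genes were read beside Slco4a1. Of 10 tested, 1 lay above the control on each hairpin and 4 below it, with a median of -0.31. The one higher was the aromatic amino acid and thyroid hormone carrier gene Slc16a10 (0.57 ± 0.35). Dio2, the enzyme that activates thyroid hormone, had signals of 1268 in the control, against 760, 273 and 199 on hairpins 1 to 3, a mean of -1.83 ± 1.05. The receptor gene Thra was at -0.54 ± 0.45. None passed limma's test.

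**Figure D5:**
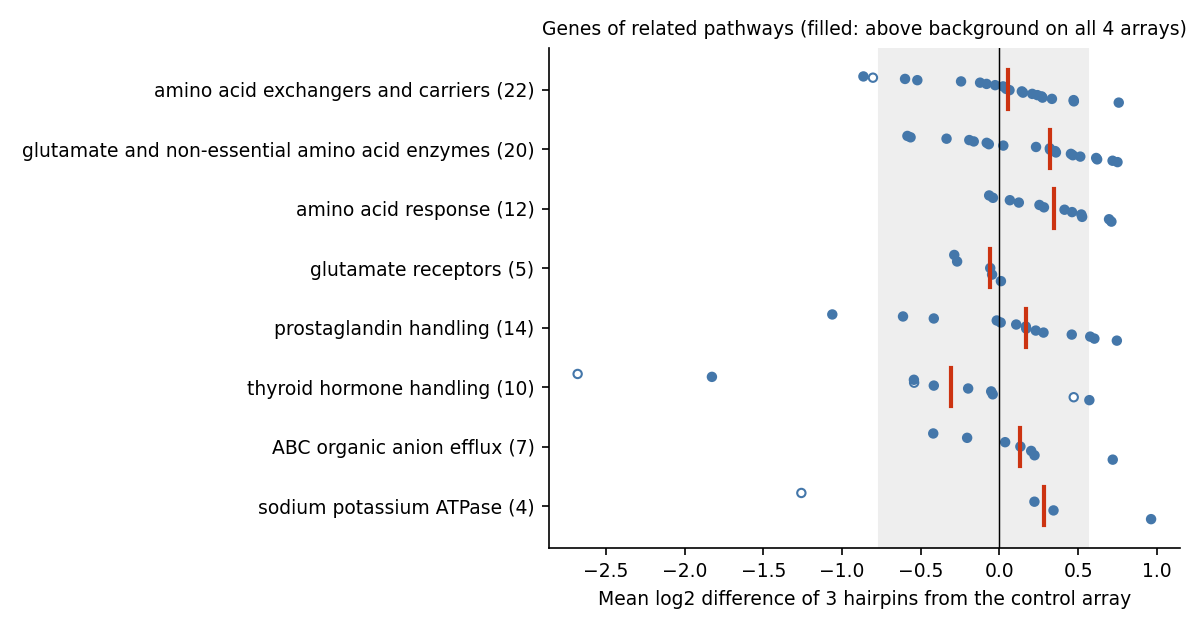
Mean log2 difference of the 3 hairpins from the control array for each tested gene of 8 related lists, with the number tested in parentheses and a red bar at each list's median. Filled points are above background on all 4 arrays, and the grey band is the 5th to 95th percentile of all genes tested. List medians lie between -0.31 (thyroid hormone) and 0.35 (amino acid response).

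Markers of other cell types were read for the whole set. Of 7 epithelial markers, Epcam, Cdh1 and Krt8 were not above background on any array. The summed level of that list was 0.63 in the control, against 1.14, 1.34 and 3.02 on hairpins 1 to 3, and its member Krt19 had signals of 135 in the control and 357, 359 and 1169 on the hairpins. The other 2 epithelial markers that passed the filter did not share this pattern: Krt18 was at -0.44, 0.75 and -0.11 and Krt5 at -0.39, 0.04 and -0.33, and the median of the 3 was 0.06. Of 7 endothelial markers, read because Slco2a1 is known from endothelium, Cdh5, Tek, Emcn and Cldn5 were not above background on any array, and the summed level lay between 7.69 and 8.36 on the hairpins and was 8.21 on the control. Most of that sum is Kdr, with signals of 3251 to 3532. Vwf, above background on hairpins 1 and 3 alone, had a signal of 21.5 in the control, against 55.9, 16.6 and 188.0 on hairpins 1 to 3. It was highest on hairpin 3, as Slco2a1 was. The 2 endothelial markers above background on all 4 arrays did not share this: Kdr was at -0.003, -0.10 and -0.04 and Pecam1 at 0.06, -0.15 and -0.06. Of 7 leukocyte markers, Ptprc, Adgre1 and Lyz2 were not above background on any array, while Itgam, Csf1r, Cd14 and Cd68 were above it on all 4, with summed levels of 26.6 on the control and 18.0 to 28.5 on the hairpins. The part of these cell types in the transporter values was not tested.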

How the data were processed

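Per the file headers, the authors' software was Feature Extraction 11.5.1.1 by Agilent, run with the protocol GE1_1105_Oct12 on design 028005 (build mm9), and 1 slide held all 4 arrays. The deposited values used are processed signal intensity, which is background-subtracted and detrended per array. In the deposited series table the same intensity stands times 1 factor per array (2.02 to 2.25).

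Features that are not controls were averaged per probe on the log2 scale and each array's 75th percentile was subtracted. Probe accessions, without versions, named 28026 of 55681 probes through RefSeq. A gene's brightest kept probe stood for it. A probe with several features counted as above background if most of them did. The comparison across all genes used R 4.3.3 and limma 3.58.1 (lmFit, eBayes, two-sided, Benjamini-Hochberg adjusted p under 0.05), which takes the spread between hairpins for the lone control array. The number of arrays limits the precision, and p-values measure only the spread between hairpins.

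The members, the gene lists and the rules were chosen with earlier results of these data known. Named were all members and, per list, genes called or at least 2-fold on all 3 hairpins, up to 4 genes farthest from 0 that were above background throughout, and the 3 genes nearest to Slco4a1 and to Slc1a3. Other names are said to be chosen after their values. Alternatives were other scalings, normexp (offset 50, on median spot and background intensity), the series table, other filters, the mean of a gene's probes, an intensity trend and each hairpin left out. Some list genes, and the summed level of the glial marker list, are not reported here.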

Additional observations from a re-analysis of the deposited data

How the results depend on the processing

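Slco4a1 and Slc1a3 stayed above the control on all 3 hairpins under the 5 other scalings and corrections, with means of 2.03 to 3.35 and 1.15 to 3.03. The low ends are normexp, which shrinks dim signals by its offset. With a hairpin left out, the means were 2.93 to 3.73 and 2.69 to 3.67. Slc1a3 drops out where a gene must be above background in the control too. Under the other scalings, corrections and filters the other members moved by less than their SD. With a hairpin left out, their means were 0.25 to 0.78 for Slco2a1, 0.38 to 1.14 for Slco3a1, 0.02 to 0.23 for Slc1a4 and 0.21 to 0.55 for Slc1a5. limma called 0 genes higher under every setting, and 47 lower in the main setting. Lower calls were 75 with quantile normalization and 0 with normexp, without a filter, with the filter on all 4 arrays, with an intensity trend and with any hairpin left out. Genes at least 2-fold higher throughout were 5 with normexp, 144 without a filter, 12 with the filter on all 4 arrays and 54 to 146 with a hairpin left out, in place of 32. Genes at least 2-fold lower were 44 with normexp, 40 with the filter on all 4 arrays and 268 to 352 with a hairpin left out, in place of 229. Beyond the change in genes tested or hairpins required, the cause was not tested. No paired analysis was possible because the control group has 1 array. Signals near background limit Slc1a3, Slc1a7 and the control value of Slco4a1.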

Other observations

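Within the glutamate and amino acid enzyme list and the amino acid response list, hairpins 2 and 3 were both above hairpin 1 in 13 of 20 and 8 of 12 genes, beside 37.3% of all genes tested. The same count was 10 of 22 for the amino acid carriers, 2 of 14 for the prostaglandin genes and 0 of 5 for the glutamate receptors. This count was chosen after the values were seen, it rests on 1 array per hairpin, and it has no test. The 4 genes that follow were likewise named after their values were seen. Atf4, the transcription factor of this response, was at 0.15, 0.58 and 0.66 on hairpins 1 to 3, the cationic carrier gene Slc7a1 at 0.16, 0.61 and 0.64, and the proline synthesis gene Aldh18a1 at 0.17, 0.72 and 0.65. Slc38a2, a neutral amino acid carrier gene, was lower on all 3, at -0.05, -0.29 and -0.40.

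Slc1a6 had a signal of 1583 in the control, while Slc1a1 and Slc1a2 were not above background on any array. It has 1 named probe on this array.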
